A study of Mus musculus with 23 samples.

Results

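Gene expression was compared between the gastrocnemius muscle of lamin A/C knockout mice on day 4 and on day 3 after an injection, across all genes on the array. The 6 arrays of the comparison were chosen by their titles: 3 arrays of lamin A/C knockout muscle 4 days after the injection and 3 of lamin A/C knockout muscle 3 days after it, of the 23 arrays of the series. The series profiled staged degeneration and regeneration of muscle in lamin A/C-deficient mice, emerin-deficient mice and control mice with Affymetrix arrays. Controls were 2 arrays each on days 0, 3 and 4, emerin knockouts were 2 arrays on day 0 and 3 each on days 3 and 4, and lamin A/C knockouts were 3 arrays on each of the 3 days. The labels give the genotype as lamin A/C KO with no allele or strain, and they give neither the agent injected nor the age or sex of the mice. They do not say whether the arrays of a group came from separate mice, so the p-values below measure only the spread between these arrays, which may be technical. The lamin A/C KO groups were profiled as whole muscle, so the signal mixes muscle, immune, connective and vascular cells.

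Lamins A and C are splice products of Lmna and form, with the B-type lamins, the protein mesh that lines the inner nuclear membrane. Loss or mutation of lamin A/C or of its partner emerin causes Emery-Dreifuss muscular dystrophy in people. After muscle is injured, dead fibers are cleared by neutrophils and monocyte-derived macrophages while satellite cells divide as myoblasts. The myoblasts then leave the cell cycle, fuse and build new fibers, which first express embryonic and fetal sarcomere genes and later the adult ones. Fibroblasts and fibro-adipogenic progenitors lay down a transient matrix around the new fibers. The days compared lie where clearing of debris and the building of new fibers follow each other.

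The values are array signals scaled so that each array has the same trimmed mean, 500, on a linear scale. Differences are of log2(signal + 32), so they understate the change of dim genes. Of 12393 genes with a probe set, 11164 were bright enough to be tested, and a gene was called at a Benjamini-Hochberg adjusted p under 0.05 in limma. The tissue label was borne out by muscle markers: on the 6 arrays Acta1, skeletal actin, read 14674 to 19155, Mylpf, a fast myosin light chain, 11045 to 17612, and Myog, the regulator myogenin, 2671 to 6528. The brightest Lmna probe set read 53, 55.6 and 74.8 on the day 3 arrays and 60.2, 71.1 and 81 on the day 4 arrays of the knockout, against means of 3992 and 3744 in the controls of those days. Another probe set of Lmna was below the controls by less, at means of 993 and 686 against 2310 and 2014, and the other 2 read higher in the knockout than in the control (461 and 274 against 195 and 216, and 390 and 247 against 21.0 and 39.7), so the knockout is seen by some of the 4 probe sets of Lmna and not by all. Emd, which encodes emerin, read 871, 717 and 803 on day 3 and 684, 680 and 770 on day 4 and was not called.

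The 3'/5' signal ratio of Gapdh, a measure of RNA integrity, moved with the comparison. It was 1.21, 1.33 and 1.64 on the day 3 arrays and 0.888, 0.822 and 0.873 on the day 4 arrays, with no overlap. The same ratio of Actb was 1.21, 1.11 and 1.23 on day 3 and 1.18, 1.11 and 0.989 on day 4. Because the ratios of the days do not overlap, the day and the ratio cannot be told apart within these 6 arrays. With the ratio as a covariate, 52 of the 228 genes called were still called, and the number of members called in that fit is given beside each main gene group.

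Between day 3 and day 4, 144 genes rose and 84 fell, which is 1.29% and 0.752% of the genes tested and 2.04% together. At an unadjusted p under 0.05 there were 1665 genes. The rises were larger: 70 of the 144 were at least 2-fold, against 13 of the 84 falls, and the median differences were 0.99 and -0.71 against -0.02 over all genes tested. In all 228 genes the 3 day 4 arrays did not overlap the 3 day 3 arrays, which was also true of 25.8% of all genes tested. Of these calls, 49 rises and 6 falls were kept without day 3 replicate 3, and 46 rises and 19 falls without day 4 replicate 2. Of the 228 calls, 42 (36 rises and 6 falls) held in each of the 6 fits that left out 1 array of the comparison. Among the list members and largest changes described below these were the rises of Atp1b4, Atp1b2, Aspn, Tmod4, Apobec2, Fabp3, Myoz1, Myot, Lmod2, Myf6, Myh8, Mest, Sln, Cox8b, Pgam2, Ccn3, Islr, Adipoq, Asb12, Shisa2, Frzb and Itm2a and the falls of Cdh15, Rrm2 and Top2a.

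**Figure D1:**
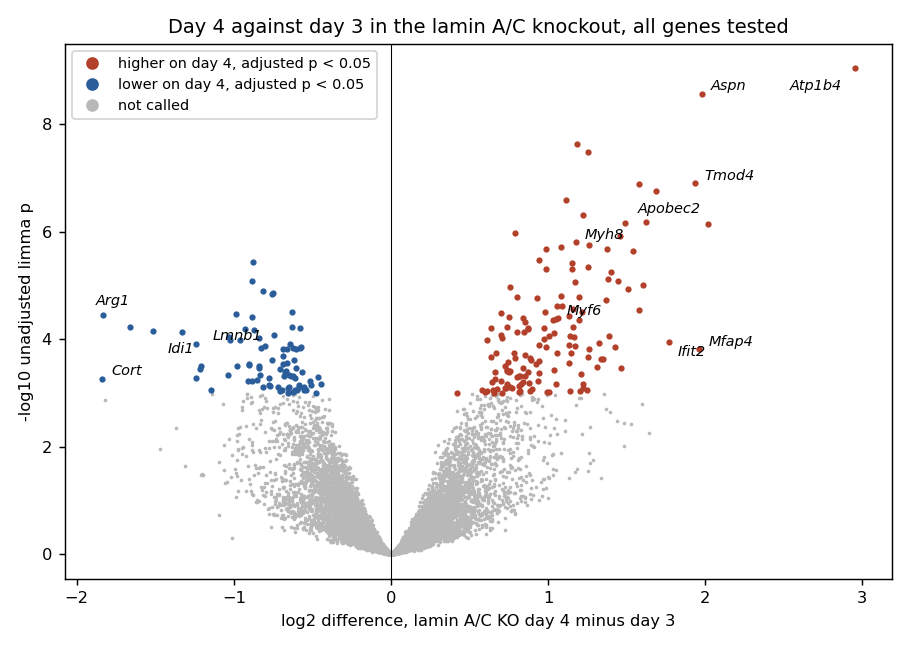
Log2 difference between day 4 and day 3 in the lamin A/C knockout (horizontal axis) and the -log10 unadjusted limma p (vertical axis) of the 11164 genes tested, one point per gene. The 144 genes that rose reach 2.95 for Atp1b4, and the 84 that fell reach -1.84 for Cort.

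The largest rise was that of Atp1b4, a muscle-specific relative of the sodium pump beta subunits that sits in the inner nuclear membrane. Atp1b4 read 78.8, 104 and 78.6 on the day 3 arrays and 1027, 873 and 771 on the day 4 arrays. Every day 4 array was above every day 3 array, and the day 4 mean was also above the day 0 mean of 343 (log2 difference between days 3 and 4 2.95 ± 0.28 (SE), adjusted p = 1.03e-05). Atp1b2, a beta subunit of the sodium pump itself, read 112, 221 and 196 on day 3 and 891, 1132 and 479.8 on day 4, without overlap but with day 4 replicate 3 well below the other 2 (difference 2.01 ± 0.29 (SE), adjusted p = 0.000671). It had been 2927 on day 0. The other bright probe set of Atp1b2 rose by less (difference 0.75).

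A number of genes of adult muscle fibers rose. Of 28 mature fast contractile genes tested, 11 rose and none fell, 26 had a positive difference, and the median difference was 0.70. Myoz1, calsarcin-2 of the fast fiber Z-disc, 2.99-fold higher on day 4, showed the scale. Myoz1 read 702, 1111 and 1027 on the day 3 arrays and 2498, 3279 and 2795 on the day 4 arrays, so the groups stood clear of each other (difference 1.58 ± 0.20 (SE), adjusted p = 0.000238). Its day 0 mean was 15047, so the day 4 level was still far below that of muscle on day 0. Myot (myotilin, difference 1.44), Ldb3 (cypher, 1.22), Lmod2 (leiomodin-2, an actin filament elongation factor, 1.20), Pygm (muscle glycogen phosphorylase, 1.17), Myl1 (fast essential myosin light chain, 1.14), Tcap (telethonin, 1.13), Smpx (1.03), Tnni2 (fast troponin I, 0.88), Actn2 (0.87) and Eno3 (muscle enolase, 0.70) were the others. Not all of these are confined to fast fibers (Actn2 and Tcap, for example, are not), and Pygm and Eno3 are enzymes. Myh4, a fast myosin heavy chain, Ckm, Mylpf and Acta1 were in the list and were not called. Their means went from 4748 to 9113, 7812 to 12414, 11986 to 16367 and 15634 to 16794. The count is sensitive to single arrays: 6 without day 3 replicate 1, 6 without day 3 replicate 3, 3 without day 4 replicate 2 and 10 or 11 without each of the other 3. It was 2 with the Gapdh ratio as covariate. Summed signals of the list ranged from 115460 to 132120 on the day 3 arrays and from 167780 to 209810 on the day 4 arrays.

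Z-disc and stretch-sensing genes, which share members with the fast list, gave 8 rises and no fall among 19 tested, with a median of 0.58. Besides Myoz1, Myot, Ldb3, Tcap and Actn2 these were Synpo2 (an actin-bundling Z-disc protein, 1.26), Pdlim3 (ALP, 0.87) and Pdlim5 (ENH, 0.80, with 2 of its 5 other bright probe sets in the opposite direction). The count was 3 without day 4 replicate 2 and 2 with the Gapdh covariate. Tmod4, which caps the pointed end of thin filaments in skeletal muscle, was in neither list and was among the largest rises. Tmod4 read 321, 368 and 416 on the day 3 arrays and 1439.9, 1709 and 1354 on the day 4 arrays (difference 1.94 ± 0.25 (SE), adjusted p = 0.000238), against a day 0 mean of 6502. The 3 arrays of each day lay close together and far from those of the other day.

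Apobec2, a muscle member of the cytidine deaminase family, read 554, 681 and 586 on day 3 and 2193, 1834 and 2044 on day 4 (difference 1.69 ± 0.22 (SE), adjusted p = 0.000284). Asb12, a muscle-enriched ankyrin repeat and SOCS box protein, read 40.9, 64.7 and 96.4 and 260.2, 306 and 169, all day 3 arrays being below the 100 used as the limit of a bright signal (1.49 ± 0.21 (SE), adjusted p = 0.000671). Neither gene's days overlapped, and both were still below their day 0 means of 8334 and 1234.

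Short stretches of RefSeq promoter sequence (GRCm38.p6) are shown for 4 of these risen muscle genes. They hold letters of, or close to, motifs that myogenic factors are known to bind. Windows were the 250 bases before each annotated start, read on both strands, and the stretch printed reaches up to 40 bases beyond the outermost match. Capitals mark CTANNNNTAG, a loose form of the MEF2 site, in Ldb3 and Smpx. In Myl1 and Pdlim3 they mark CAGCTG, an E-box of the type bound by MyoD family factors. The MEF2 consensus has only A or T at the N positions. Ldb3 has a C there and Smpx a G, so neither match fits the consensus. The match in Synpo2, not printed here, does. Of the 19 genes of the fast list with a window, 3 held the loose MEF2 pattern and 6 the E-box, and of all 32851 windows 3.20% and 13.0% did. Pdlim3 is in the Z-disc list, where 4 of 13 genes with a window held the E-box. A list gene counted if any of its windows matched, while the share of all windows counts single windows, so these are unlike measures. A match describes these letters only.
Ldb3, GRCm38.p6 chr14:34588613-34588702, minus strand: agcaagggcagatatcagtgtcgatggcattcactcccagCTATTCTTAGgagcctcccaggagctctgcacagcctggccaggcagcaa
Smpx, GRCm38.p6 chrX:157698807-157698896, plus strand: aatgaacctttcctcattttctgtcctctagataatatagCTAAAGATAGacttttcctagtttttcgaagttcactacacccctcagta
Myl1, GRCm38.p6 chr1:66945235-66945306, minus strand: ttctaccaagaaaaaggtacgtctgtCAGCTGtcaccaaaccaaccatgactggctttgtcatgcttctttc
Pdlim3, GRCm38.p6 chr8:45885308-45885393, plus strand: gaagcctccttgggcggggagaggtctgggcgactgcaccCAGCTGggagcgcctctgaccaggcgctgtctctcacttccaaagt

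Slow fiber genes gave no call. None of 14 slow fiber contractile genes was called in either direction, 7 had a positive difference, and the median was 0.05. The summed signals of the list were higher on day 4, at 40551 to 43300 on the day 3 arrays and 48666 to 49711 on the day 4 arrays. Members with the smallest p were Myl3, the slow ventricular-type essential light chain, 147 ± 35.3 to 61.2 ± 15.7 (mean ± SD, n = 3 each day; difference -0.94 ± 0.26 (SE), adjusted p = 0.0563), and Ankrd2, a stretch-responsive ankyrin repeat protein, 504 ± 253 to 155 ± 134 (-1.82 ± 0.49 (SE), adjusted p = 0.0552). Myh7, the slow myosin heavy chain, read 219.6, 163 and 313 on day 3 and 117, 110.2 and 124 on day 4, where it was lower on every array but missed the threshold (-0.79 ± 0.22 (SE), adjusted p = 0.0659). All these values were far under the day 0 means of 9865 for Myl3, 3913 for Ankrd2 and 4795 for Myh7.

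Among 18 embryonic and fetal muscle genes, 5 rose, none fell and the median was 0.29. Myh8, the perinatal myosin heavy chain, read 1307, 1107 and 983 on day 3 and 2709, 2908 and 2183 on day 4, every day 4 array being above every day 3 array and above the day 0 mean of 648 (1.18 ± 0.18 (SE), adjusted p = 0.00119). Dlk1, a Notch-family ligand of fetal muscle and of stromal progenitors, read 512, 650.1 and 226 and 1678, 1303 and 1082 (1.58 ± 0.30 (SE), adjusted p = 0.00699), and its lowest value was day 3 replicate 3. The imprinted genes Mest (2885 ± 709 to 6391 ± 257, difference 1.17) and Igf2, a growth factor of regenerating muscle (4963 ± 575 to 9009.9 ± 1219, 0.85), rose with Atp1b4. The count was 3 without day 3 replicate 3 and also 3 with the Gapdh covariate. Of the 18 genes of the insulin-like growth factor axis, Igf2 and the receptor substrate Irs1 (0.85) rose.

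Myogenic regulators moved in both directions. Of 29 tested, 2 rose and 2 fell, with a median of -0.01. Myf6 (MRF4), the regulator expressed last and kept in adult fibers, read 498, 433 and 454 on day 3 and 1201, 1041 and 793 on day 4, without overlap (1.06 ± 0.21 (SE), adjusted p = 0.00806), and Mef2c rose with it (1596 ± 225 to 2606 ± 317, difference 0.70). Cdh15, the M-cadherin of satellite cells and myoblasts, read 1668, 1414 and 1361 on day 3 and 846, 755 and 769 on day 4 (-0.88 ± 0.14 (SE), adjusted p = 0.00184). Myod1, the regulator of committed myoblasts, read 2957, 2306 and 2439 and 1757, 1878 and 1556 (-0.56 ± 0.14 (SE), adjusted p = 0.0449), and its call was lost without each of the 6 arrays. Myog, at a mean of 5421 ± 959 on day 3 and 3540 ± 795 on day 4, missed the threshold (difference -0.62 ± 0.16, adjusted p = 0.0504). Mef2c lost its call without day 3 replicate 3 or day 4 replicate 1. With the Gapdh covariate 1 member was called, in the downward direction.

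Other compartments of the fiber showed single calls. Sln, sarcolipin, the small inhibitor of the calcium pump, was the risen member of 17 sarcoplasmic reticulum and calcium genes (1950.1 ± 179.7 to 4729 ± 663, 1.26 ± 0.19 (SE), adjusted p = 0.00122), and the list had a median of 0.46. Dmd, dystrophin, was the risen member of 15 dystrophin complex genes, reading 211, 183 and 139.7 on day 3 and 365, 379 and 348 on day 4 (0.93 ± 0.17 (SE), adjusted p = 0.00469). None of 15 neuromuscular junction and receptor genes was called, and the fetal acetylcholine receptor subunit Chrng had 3044 ± 245 to 1669 ± 399 (-0.88 ± 0.27 (SE), adjusted p = 0.101). The 2 other bright probe sets of Chrng changed by 0.10 and -0.15, 1 of them in the opposite direction.

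Few genes of energy metabolism were called. Of 26 glycolysis and glycogen genes, 4 rose and none fell (median 0.24): Pygm, Pgam2 (muscle phosphoglycerate mutase, 1.08), Pgm1 (phosphoglucomutase, 0.74) and Eno3. The count was 1 without day 3 replicate 1, without day 3 replicate 3 or without day 4 replicate 2, it was 2 without day 4 replicate 1, and it was 1 with the Gapdh covariate. Of 57 oxidative phosphorylation genes, 47 had a positive difference and the median was 0.20, but 2 rose: Cox8b, the muscle form of a cytochrome oxidase subunit (802, 775 and 846 on day 3 and 1699, 2099.8 and 1730.3 on day 4, 1.15 ± 0.19 (SE), adjusted p = 0.00184), and Atp5j (0.73), a subunit of the ATP synthase. Of 34 genes of the tricarboxylic acid cycle and fat oxidation, Fabp3, the fatty acid carrier of oxidative muscle (427, 559 and 608 and 1652, 1886 and 1542, 1.62 ± 0.23 (SE), adjusted p = 0.000671), and Idh3a (1.13) rose. Atp5j lost its call without any 1 of 5 of the arrays, and Idh3a without day 3 replicate 3 or day 4 replicate 2. Both days of Fabp3 were well apart and under its day 0 mean of 8340.2.

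**Figure D2:**
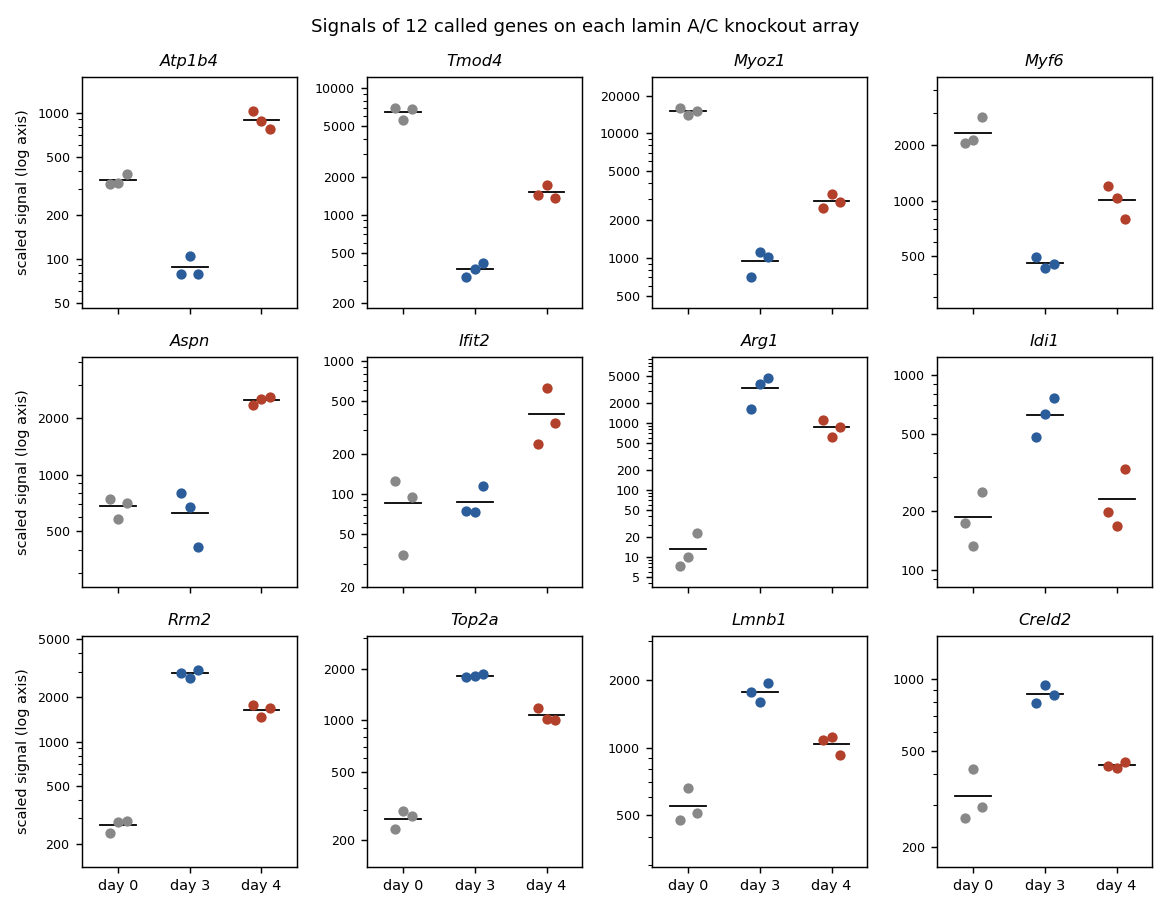
Scaled signal (log axis) of 12 called genes on each lamin A/C knockout array of days 0, 3 and 4, one point per array and a bar at the mean of 3. Tmod4, Myoz1 and Myf6 on day 4 lie between their day 3 and day 0 levels, Atp1b4 and Aspn lie above both, and Arg1, Rrm2, Top2a and Lmnb1 on day 4 lie below day 3 and above day 0.

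Several small proteoglycans and other matrix-associated proteins rose. Of 37 matricellular proteins and proteoglycans, 9 rose, none fell, 32 had a positive difference and the median was 0.37. Aspn, asporin, a small leucine-rich proteoglycan, had the second smallest p of all genes. Aspn read 798, 677 and 415 on the day 3 arrays and 2350.5, 2542 and 2588 on the day 4 arrays, so the day 4 arrays agreed closely and the day 3 arrays spread, with replicate 3 lowest (1.98 ± 0.20 (SE), adjusted p = 1.53e-05). The other bright probe set of Aspn rose by less, from a mean of 767 to 1442 (difference 0.90). Mfap4, a microfibril-associated glycoprotein, read 731, 553 and 201 and 1692, 1778 and 1943 (1.96 ± 0.43 (SE), adjusted p = 0.0159), again with day 3 replicate 3 lowest. Ccn3 (1.46), Tnmd (tenomodulin, the tendon protein, 1.31), Islr (1.18), Ogn (osteoglycin, 1.16), Lum (lumican, 1.04), Postn (periostin, 0.89) and Sparcl1 (0.85) were the others. The count was 3 without day 3 replicate 3, 6 without day 4 replicate 1, 5 without day 4 replicate 2, 4 without day 4 replicate 3 and 4 with the Gapdh covariate.

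Of 21 collagens none rose and Col5a3, a chain of collagen V, fell (3727 ± 630.3 to 2319 ± 78, -0.66 ± 0.15 (SE), adjusted p = 0.0245), with its other bright probe set in the opposite direction. The median of the collagens was 0.08. None of 20 collagen processing genes and none of 39 TGF-beta and BMP pathway genes was called. Among 24 metalloproteinases and inhibitors Adam8, a protease of myeloid cells, fell (2419 ± 783 to 1206 ± 293, -0.96 ± 0.20 (SE), adjusted p = 0.0128). Of 25 fibroblast and fibro-adipogenic progenitor markers 2 rose, Dlk1 and Lum, and the median was 0.09. The tendon list had Tnmd as its risen member of 7, and its summed signal ranged from 10547 to 14743 on the day 3 arrays and from 15877 to 21393 on the day 4 arrays. In whole muscle a lower signal can mean fewer cells of a type or less RNA per cell, and these cannot be told apart.

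Among 14 adipocyte markers, 3 rose: Adipoq, the hormone adiponectin, 807, 678 and 522 on day 3 and 1798, 1828 and 1659.8 on day 4 (1.37 ± 0.21 (SE), adjusted p = 0.00124), Gpd1 (1.19, with 1 of its 3 other bright probe sets in the opposite direction) and Car3, carbonic anhydrase of fat and muscle (0.79). Gpd1 and Car3 are also expressed in muscle fibers. The list had a median of 0.11, its summed signal ranged from 17359 to 20089 on the day 3 arrays and from 23130 to 25697 on the day 4 arrays, and the count was 1 without day 4 replicate 2 and 2 with the Gapdh covariate. The part of adipose tissue in the samples was not tested.

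A few interferon-response genes rose. Of 35 tested, 4 were called, all upward, 32 had a positive difference and the median was 0.60. The summed signals of the list overlapped, ranging from 18267 to 22600 on the day 3 arrays and from 21092 to 33795 on the day 4 arrays. Ifit2, an interferon-induced RNA-binding protein, read 75, 73.4 and 114 on day 3 and 237, 618 and 339 on day 4 (1.77 ± 0.37 (SE), adjusted p = 0.0135). Ifit3 read 274, 212 and 346 and 395, 1205 and 691 (1.25 ± 0.28 (SE), adjusted p = 0.0207), and Oasl2, of the oligoadenylate synthetase family, 136, 165 and 194 and 292, 782 and 322 (1.21 ± 0.29 (SE), adjusted p = 0.0313). Day 4 replicate 2 was highest in all 3 genes and lay well above the other 2 day 4 arrays, while replicate 1 was the lowest day 4 array in all 3. Igtp, an interferon-gamma-induced GTPase of the immunity-related family, differed by 0.74. The calls turned on single arrays: none was left without day 4 replicate 2 or without day 3 replicate 2, 2 were left without day 3 replicate 1, day 3 replicate 3 or day 4 replicate 3, and 8 were called without day 4 replicate 1. None was called with the Gapdh covariate. Ifitm1, an interferon-inducible membrane protein that was not in the list, fell (1026 ± 332 to 404 ± 90, -1.24 ± 0.30 (SE), adjusted p = 0.0346).

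Promoter stretches are shown for the interferon-response genes called that hold the core of the interferon-stimulated response element, GAAANNGAAA, on either strand (capitals). Of the 28 list genes with a window 12 held it in any of their windows (42.9%). Counted by single windows, an unlike measure, 2.98% of all windows did. In Ifit3 both matches are on the opposite strand and begin 156 and 122 bases before the start, and in Igtp the match begins 34 bases before it.
Ifit3, GRCm38.p6 chr19:34583333-34583456, plus strand: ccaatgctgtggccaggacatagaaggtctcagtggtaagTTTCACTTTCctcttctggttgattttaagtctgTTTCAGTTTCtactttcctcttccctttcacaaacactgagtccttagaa
Igtp, GRCm38.p6 chr11:58199482-58199555, plus strand: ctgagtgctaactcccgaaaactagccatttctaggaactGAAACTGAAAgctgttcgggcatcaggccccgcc

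Arg1, Chil3 and F10, which myeloid cells express, were among the largest falls. Arg1, arginase-1 of alternatively activated and early wound macrophages, read 1629, 3777 and 4719.6 on day 3 and 1105, 611 and 874 on day 4 (-1.83 ± 0.35 (SE), adjusted p = 0.00766), with every day 4 array lower and day 3 replicate 1 the closest. On day 0 its mean was 13.2, so the day 4 level was still far above that of day 0. Chil3 (Ym1), a chitinase-like protein of macrophages and neutrophils, read 626, 778 and 1699 and 338, 231 and 375 (-1.51 ± 0.31 (SE), adjusted p = 0.0109), and F10, coagulation factor X, which monocytes make, 426, 495 and 694 and 189.8, 146 and 306 (-1.24 ± 0.26 (SE), adjusted p = 0.0148). These were the 3 falls among 21 genes of the inflammatory monocyte list, which had no rise, 7 positive differences and a median of -0.11. The summed signals of that list overlapped, at 45412 to 60830 on the day 3 arrays and 47288 to 50288 on the day 4 arrays. None of the 3 calls was left without day 3 replicate 3 or without day 4 replicate 2, 2 were left without day 4 replicate 1, and 1 was called with the Gapdh covariate.

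Broader leukocyte lists held few calls. Of 31 pan-macrophage genes Cd14, the lipopolysaccharide co-receptor, fell (3689.6 ± 1066 to 1941 ± 274, -0.88 ± 0.22 (SE), adjusted p = 0.0383), the median was 0.06, and the summed signal ranged from 95029 to 97760 on the day 3 arrays and from 89601 to 109520 on the day 4 arrays. Of 23 repair macrophage genes Plin2, the lipid droplet coat protein, fell, from 6465, 7910 and 10385 on day 3 to 3780.4, 2941 and 5538 on day 4 (-1.03 ± 0.21 (SE), adjusted p = 0.012), with a list median of -0.22. None of 12 neutrophil genes was called (median -0.32). Il1r2, the decoy receptor for interleukin 1, came nearest (349 ± 58.4 to 141 ± 22.8, -1.14 ± 0.30 (SE), adjusted p = 0.0501). The neutrophil list summed to 4975 to 7027 on the day 3 arrays and 3668 to 4847 on the day 4 arrays. These sums did not overlap, but neither did those of other lists without a call. Endothelial markers, for example, summed to 16854 to 17598 on day 3 and 14251 to 16382 on day 4. None of 18 lymphocyte genes, 27 lysosome and phagocytosis genes, 16 complement genes or 11 genes of MHC class II presentation was called. Itgb7, an integrin subunit of leukocytes, read 349.7, 517 and 678 and 215, 84.6 and 132 (-1.66 ± 0.33 (SE), adjusted p = 0.0101), and Dok2, an adaptor of hematopoietic cells, 613, 985 and 1380.2 and 356, 339 and 484 (-1.21 ± 0.29 (SE), adjusted p = 0.0278), both with no overlap.

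Of 30 chemokines and cytokines, 1 rose and 2 fell, with a median of -0.20. Ccl8, a monocyte attractant, rose from 1462 ± 395 to 3146 ± 850 (1.09 ± 0.20 (SE), adjusted p = 0.00623). Cxcl14 read 1245, 1508 and 2826 and 1059, 760.2 and 739 (-1.03 ± 0.22 (SE), adjusted p = 0.0128), with day 3 replicate 3 highest. Ccl9 fell by less (-0.91 ± 0.23 (SE), adjusted p = 0.0383), and its other bright probe set went in the opposite direction. Ccl24, eotaxin-2, fell outside the list (169.8 ± 69.6 to 56.3 ± 15.2, -1.14 ± 0.30 (SE), adjusted p = 0.047).

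Some cell cycle genes fell. Of 45 DNA replication genes 6 fell and none rose, 8 had a positive difference and the median was -0.40. Of 55 mitosis genes 4 fell and none rose, 5 had a positive difference and the median was -0.36. Rrm2, the regulated subunit of ribonucleotide reductase, read 2950.2, 2734 and 3071 on day 3 and 1768, 1476 and 1702 on day 4 (-0.81 ± 0.14 (SE), adjusted p = 0.00405), and 1 of its 2 other bright probe sets went in the opposite direction. Top2a, DNA topoisomerase II alpha, which is in both lists, read 1777, 1806 and 1856 and 1180.4, 1019 and 999.7 (-0.75 ± 0.13 (SE), adjusted p = 0.00424). Mcm5, a subunit of the replicative helicase, read 634, 959 and 962 and 427, 493 and 443 (-0.84 ± 0.20 (SE), adjusted p = 0.0273). In all 3 the day 3 arrays were above every day 4 array, and the day 4 means were above the day 0 means of 268, 267 and 164.

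The other replication genes that fell were Mcm7 (-0.78), Cdt1, the licensing factor (-0.68), and Rpa1 (-0.58). The other mitosis genes were Bub3 of the spindle checkpoint (-0.65), the condensin subunit Ncapd2 (-0.60) and Stmn1 (-0.55). Ccnf, cyclin F, fell outside the lists (199.8, 226 and 317 on day 3 and 106, 89.5 and 130.3 on day 4, -0.98 ± 0.23 (SE), adjusted p = 0.0264). The replication count was 3 without day 3 replicate 2 and 2 without day 3 replicate 3, day 4 replicate 2 or day 4 replicate 3, and the mitosis count was 1 without day 3 replicate 2, day 3 replicate 3 or day 4 replicate 3 and 2 without day 4 replicate 1 or 2. With the Gapdh covariate 2 replication genes and 1 mitosis gene were called. The summed signals did not overlap: replication genes ranged from 35389 to 39716 on the day 3 arrays and from 25648 to 27763 on the day 4 arrays, and mitosis genes from 47477 to 55529 on the day 3 arrays and from 38915 to 39067 on the day 4 arrays. Lists without a call also had sums that did not overlap, such as slow fiber genes (40551 to 43300 on day 3 and 48666 to 49711 on day 4). None of 28 genes of the Rb, E2F and G1 cyclin list was called, and the smallest p belonged to the cyclin Ccnd1 (2137 ± 521 to 1411 ± 145, -0.57 ± 0.21 (SE), adjusted p = 0.167) and E2f6 (0.57 ± 0.19 (SE), adjusted p = 0.13).

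Promoter stretches of Mcm5 and Mcm7 are shown because they hold an E2F-type site, searched on both strands as TTTCCCGC, TTTCGCGC, TTTGCCGC or TTTGGCGC (capitals). Of the 39 replication genes with a window 9 held such a site in any of their windows (23.1%). Counted by single windows, an unlike measure, 1.86% of all windows did. In Mcm5 a match on each strand overlaps the other, in the run of 12 capitals.
Mcm5, GRCm38.p6 chr8:75109316-75109407, plus strand: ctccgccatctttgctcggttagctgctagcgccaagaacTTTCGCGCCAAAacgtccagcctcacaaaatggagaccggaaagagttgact
Mcm7, GRCm38.p6 chr5:138172001-138172088, minus strand: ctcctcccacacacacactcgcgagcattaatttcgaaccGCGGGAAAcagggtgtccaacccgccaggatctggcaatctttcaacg

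Genes of protein folding and of sterol synthesis fell in small numbers. Of 38 amino acid and endoplasmic reticulum stress genes 3 fell, none rose and the median was -0.29. Creld2, a stress-induced disulfide isomerase, read 791, 938 and 856 on day 3 and 432, 426 and 451 on day 4, the groups standing clear of each other (-0.93 ± 0.19 (SE), adjusted p = 0.0104). Manf, a secreted stress-response factor (3196 ± 329.6 to 1772 ± 142, -0.84), and Pdia6, a disulfide isomerase (3079.6 ± 328 to 2010.2 ± 152, -0.60), were the others. None of the 3 was called without day 3 replicate 3, 1 without day 4 replicate 1 and none with the Gapdh covariate.

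Of 22 cholesterol and fatty acid synthesis genes 3 fell and none rose, with a median of -0.35. Idi1, isopentenyl diphosphate isomerase, read 479, 630.2 and 757 and 199, 167 and 331 (-1.33 ± 0.27 (SE), adjusted p = 0.0109), and Cyp51, lanosterol demethylase, 349, 403 and 657 and 213, 169 and 156 (-1.21 ± 0.28 (SE), adjusted p = 0.0264). Elovl1, a fatty acid elongase, differed by -0.62. No day 4 array of Idi1 or Cyp51 reached the lowest day 3 array. The count was 1 without day 3 replicate 2, 0 without day 3 replicate 3 or day 4 replicate 2, and 1 with the Gapdh covariate.

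Among 34 nuclear envelope and lamina genes, the compartment to which lamin A/C belongs, 2 fell, 1 rose and the median was -0.25. Lmnb1, lamin B1, read 1763, 1601 and 1950 on day 3 and 1085, 1112 and 929.9 on day 4, without overlap (-0.75 ± 0.15 (SE), adjusted p = 0.0118). Banf1, the barrier-to-autointegration factor that binds emerin and DNA, fell (3738 ± 168 to 2563 ± 114, -0.54 ± 0.14 (SE), adjusted p = 0.0472), and Narf, whose protein binds prelamin A, rose (228 ± 75 to 412 ± 26.4, 0.81 ± 0.21 (SE), adjusted p = 0.0483). Banf1 was called in none of the 6 fits that each left out 1 array, and Lmnb1 lost its call without day 3 replicate 3 or day 4 replicate 3. With the Gapdh covariate no member of the list was called.

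The lists of 35 cytosolic ribosome genes, 33 proteasome genes, 15 hypoxia genes, 26 immediate early genes, 22 endothelial markers, 15 smooth muscle markers, 15 Schwann cell markers, 4 erythroid markers, 8 epidermis markers, 5 sex-linked genes and 28 ribosome biogenesis genes had no call. Their medians ranged from -0.32 for epidermis to 0.31 for erythroid markers. Single genes of other lists were called: Hspd1, the mitochondrial chaperone (-0.46), of 23 heat shock genes, Ccng1 (0.75) of 22 p53 targets, Map1lc3a (0.64) and the metallothionein Mt2 (-0.82) of 24 denervation and atrophy genes, and the clock-output genes Nr1d2 (0.99) and Dbp (0.82) of 17 circadian clock genes. Of 22 iron and oxidative defense genes, the iron exporter Slc40a1 rose (0.80), and Mt2 and glutathione reductase Gsr (-0.64, its other bright probe set in the opposite direction) fell. Cdh15 was also the called member of 21 genes of myoblast fusion. The hour of sampling is not in the labels. In all, 84 of the 228 called genes were in at least 1 of the 53 lists.

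**Figure D3:**
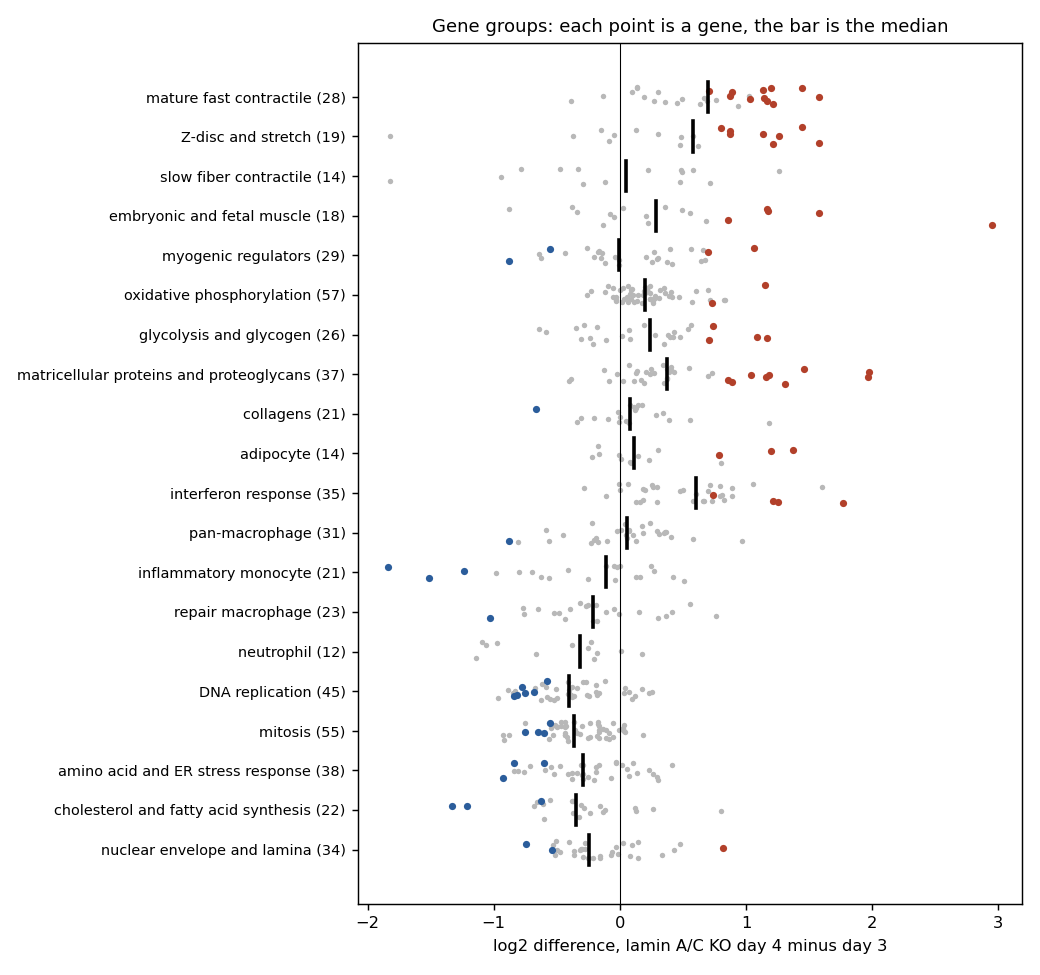
Log2 difference between day 4 and day 3 in the lamin A/C knockout for 20 gene groups, one point per gene tested (number in brackets), red for genes that rose, blue for genes that fell, gray for genes not called, with a bar at the median. The fast contractile median is at 0.70 and the DNA replication median at -0.40, against -0.02 over all genes tested.

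Other genes with the largest changes stood outside the lists. Shisa2, an endoplasmic reticulum modulator of Wnt and FGF receptors, read 142, 140.5 and 51.8 on day 3 and 372, 421 and 353 on day 4 (1.60 ± 0.28 (SE), adjusted p = 0.00349). Frzb, a secreted Wnt antagonist, read 20.7, 20.1 and 40.7 and 123, 188 and 111 (1.54 ± 0.24 (SE), adjusted p = 0.00127), its day 3 arrays all being under 100. The other bright probe set of Frzb rose by less (difference 0.67). Itm2a, a membrane protein of differentiating muscle and cartilage, read 3442, 3241 and 1702 and 6769, 8869.9 and 7419.6 (1.51 ± 0.26 (SE), adjusted p = 0.00382). Day 3 replicate 3 was the lowest array for Shisa2 and Itm2a and the highest day 3 array for Frzb. Riok2, a kinase of ribosome maturation (36.2 ± 16 to 156 ± 44.5, 1.47 ± 0.34 (SE), adjusted p = 0.0276), and Cort, the neuropeptide cortistatin (271 ± 86.5 to 50.9 ± 8.41, -1.84 ± 0.45 (SE), adjusted p = 0.0355), lost their calls without each of the 6 arrays.

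Slc39a14, a zinc and iron importer, read 1401, 1409 and 1521 on day 3 and 716, 804 and 626 on day 4 (-0.99 ± 0.19 (SE), adjusted p = 0.00742), with no overlap. Vat1, a vesicle membrane protein, read 846, 1022 and 2024 and 646, 376 and 767 (-1.04 ± 0.25 (SE), adjusted p = 0.033), where the lowest day 3 array was close to the highest day 4 array.

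Whether the day change differed from that of the other genotypes was tested in the same limma fit. The day changes share no arrays. Between day 3 and day 4, 5 genes rose in the control (0.0448%) and none fell, with 531 at an unadjusted p under 0.05 and 2 arrays a day. In the emerin knockout 107 rose (0.958%) and 24 fell (0.215%). The emerin knockout arrays had Gapdh 3'/5' ratios of 3.62 to 6.09 on day 3 and 1.40 to 5.30 on day 4. Of the 144 genes that rose in the lamin A/C knockout, 125 had a positive day change in the control (86.8%) and 129 in the emerin knockout (89.6%), with median changes there of 0.37 and 0.50 against 0.99. Of the 84 that fell, 64 (76.2%) and 67 (79.8%) had a negative change there, with medians of -0.15 and -0.30 against -0.71. Over all genes tested 55.1% and 58.1% had the same sign. The genes were chosen by their call in the lamin A/C knockout, so a larger median there follows in part from that choice. The medians therefore do not show a larger day change in this genotype.

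**Figure D4:**
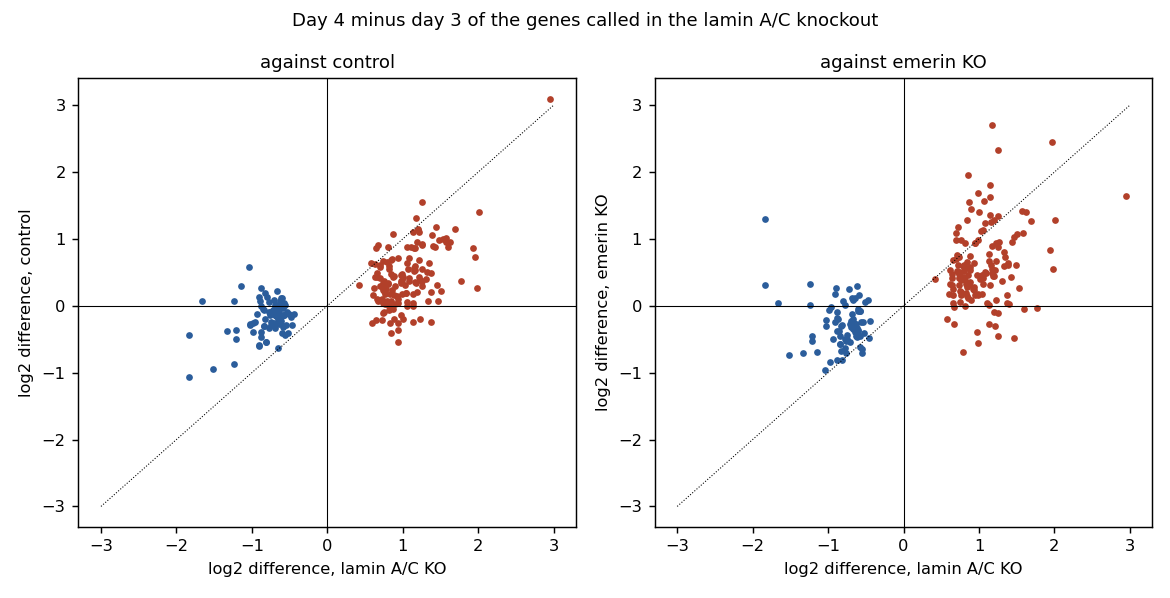
Log2 difference between day 4 and day 3 in the lamin A/C knockout (horizontal axis) against that in the control (left) and in the emerin knockout (right), one point per gene called in the lamin A/C knockout, red for rises and blue for falls, with a dotted line of equal change. The genes were chosen on the horizontal axis. Of the 144 rises, 125 are above 0 on the left and 129 on the right.

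Single genes varied in this respect. Atp1b4 differed by 3.10 in the control and 1.65 in the emerin knockout, against 2.95 here. Aspn differed by 0.27 and 0.55 against 1.98, Arg1 by -1.07 and 0.31 against -1.83, and Ifit2 by 0.37 and -0.03 against 1.77. The other bright probe set of Aspn differed by 0.90 here, and its control means were 1555 on day 3 and 1812 on day 4. None of these 4 genes was called in the test of the difference between genotypes, against the control (smallest adjusted p = 0.0996, for Aspn) or the emerin knockout (smallest adjusted p = 0.0812, for Aspn, difference 1.43). The interferon list had a median of 0.11 in the control and -0.09 in the emerin knockout, against 0.60, and no member passed either test of difference.

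Against the control, 1 gene of 11164 was called (0.00896%), with 651 at an unadjusted p under 0.05. It was Myh7, whose signal was 254 and 251 on the control day 3 arrays and 1066 and 617 on the control day 4 arrays. The control thus rose (1.57 ± 0.27, adjusted p = 0.0322), while the lamin A/C knockout values given above were lower on day 4 than on day 3. The difference between the day changes was -2.36 ± 0.35 (SE), adjusted p = 0.0127. The emerin knockout had a Myh7 day change of -0.47, with signals of 263 to 370 on day 3 and 153 to 281 on day 4. Without control day 3 replicate 1, control day 3 replicate 2, control day 4 replicate 1 or lamin A/C knockout day 4 replicate 2, the adjusted p was 0.128, 0.0542, 0.130 and 0.0529. The slow genes Myl3 and Myl2 were not called in this test (differences -2.17 and -2.38, adjusted p = 0.0996 and 0.328), while the slow fiber list had a median of 0.46 in the control and 0.78 in the emerin knockout against 0.05.

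Against the emerin knockout, 3 genes were called (0.0269%), with 711 at an unadjusted p under 0.05. Myh8 rose by less in the lamin A/C knockout (difference of day changes -1.53 ± 0.25 (SE), adjusted p = 0.0286): the emerin knockout read 467, 626 and 386 on day 3 and 3496, 2720 and 3866 on day 4. Itgb1bp2, melusin, a muscle integrin-binding protein, was 2966, 2538 and 2397 on day 3 and 3496, 3952 and 2797 on day 4 in the lamin A/C knockout, and 1483, 1481 and 1440 and then 4745, 4545 and 4622 in the emerin knockout (-1.28 ± 0.20, adjusted p = 0.0286). Car3 rose in the lamin A/C knockout from 3339, 3661 and 3353 to 6959, 5579.9 and 5488, while the emerin knockout went from 3684, 3323 and 4777 to 3069, 1816 and 2494 (1.47 ± 0.25, adjusted p = 0.0286). With the Gapdh ratio as covariate the 3 differences were -1.55 for Myh8, -1.27 for Itgb1bp2 and 1.46 for Car3 (adjusted p = 0.00869, 0.00869 and 0.0156). All 3 calls were lost without single arrays of either genotype, as given at the end.

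**Figure D5:**
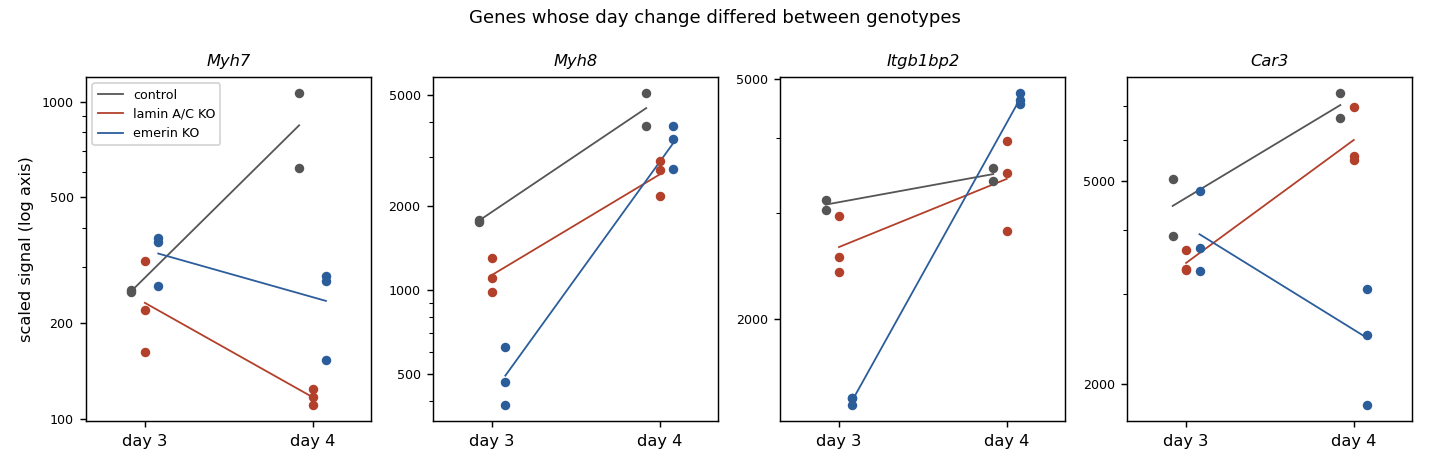
Scaled signal (log axis) of the 4 genes whose day change differed between genotypes, on days 3 and 4, one point per array (control 2 a day, lamin A/C knockout and emerin knockout 3 a day) and lines joining the group means. Myh7 is higher on day 4 in both control arrays and lower in all 3 lamin A/C knockout arrays, and Car3 is lower on day 4 in the emerin knockout and higher in the other genotypes.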

How the data were processed

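The 23 arrays carry MAS5 signals, per the submitters' processing notes, with the version not given in the sources used here. The deposited intensity values are linear, 1 per probe set, and were scaled by the authors to the same trimmed mean on each array (2% left out at each end), as the values show. Signals were multiplied so that this mean became 500. Of 22690 probe sets, 20380 had 1 gene symbol in GEO's platform annotation, 691 several, 1555 none listed and 64 were controls. For each of 12393 genes the probe set with the highest mean was kept, and the 11164 genes that reached 100 on 2 or more arrays entered the test.

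Log2(signal + 32) was fitted with limma 3.58.1 (R 4.3.3; trend over intensity) over 9 groups with 14 residual degrees of freedom, and p-values were adjusted by Benjamini-Hochberg. Day changes of different genotypes were compared by an interaction contrast. On simulated data with 200 changed genes 68% of the 2-fold and 96% of the 4-fold changes in this comparison were found, beside 13 false calls. The simulated noise was independent between genes and arrays, with no shift of a whole array and no difference in RNA integrity between the days. These shares may therefore not hold for the real arrays. Signals of different probe sets are not compared with each other. The summed signals of a list add them, so the brightest members weigh most in a sum. No depth applies to arrays, and their number limits the precision. No 2 arrays were identical, and the 6 arrays correlated at 0.944 to 0.974.

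Genes were named by rule: the 15 largest rises and 15 largest falls among called genes without overlap, up to 4 called members of each list or, with none called, 2 with the smallest p, all genes called in an interaction, Lmna and Emd. Members called beyond these and the few added for contrast (Myl2 and Myog, for example) were named after their values were seen, and unnamed cDNAs (2 of the called) are counted only. The comparison, the 53 lists and the motifs were chosen with earlier results of these data known. Of 1356 listed symbols 1198 had a probe set. Promoter windows are RefSeq's (GRCm38.p6, 27025 genes), and the 50 bases after each start were left out. Figures were drawn with Python 3 and matplotlib. Alternatives were other scalings, pseudocounts of 1 and 100, no filter and a stricter one (200 on 3 arrays), the mean of all probe sets, no intensity trend, a replicate block, fewer groups in the fit, the Gapdh ratio as covariate and leaving out each array.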

Additional observations from a re-analysis of the deposited data

Results flagged for a closer look

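The day change of 4 genes differed between the lamin A/C knockout and another genotype in the limma test of the difference itself. Myh7 differed by -2.36 from the control (adjusted p = 0.0127), being lower on day 4 in all 3 lamin A/C knockout arrays and higher in both control arrays. Myh8 differed by -1.53 and Itgb1bp2 by -1.28 from the emerin knockout (adjusted p = 0.0286 each), having a smaller rise of the mean in the lamin A/C knockout. Car3 differed by 1.47 from the emerin knockout (adjusted p = 0.0286), with a higher mean on day 4 in the lamin A/C knockout and a lower one in the emerin knockout. The emerin knockout arrays had Gapdh 3'/5' ratios of 3.62 to 6.09 on day 3 and 1.40 to 5.30 on day 4. With that ratio as covariate the differences were -2.68 for Myh7 (adjusted p = 0.00107), -1.55 for Myh8 and -1.27 for Itgb1bp2 (adjusted p = 0.00869 each) and 1.46 for Car3 (adjusted p = 0.0156).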

How the results depend on the processing

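No result reversed under any setting. Rises and falls numbered 144 and 84 in the report, 94 and 40 with median scaling (where the median of all genes was -0.07), 97 and 40 without the intensity trend, 244 and 136 when the fit held the compared groups alone, 238 and 101 without the emerin knockout arrays of high Gapdh ratio, 41 and 12 with the Gapdh ratio as covariate, and 291 and 156 with only control and lamin A/C knockout arrays, a setting chosen after seeing the data. Leaving out 1 array of the comparison gave 49 to 111 rises and 6 to 66 falls. The other settings (quantile normalization, values as deposited, both pseudocounts, no filter, stricter filter and mean of all probe sets) kept both counts within 1.5 times.

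The interaction with the control (1 gene) gave 0 without the trend and with the compared groups alone, 2 without the high-ratio emerin arrays, 3 with only control and lamin A/C knockout arrays, and 0 to 2 without single arrays. The interaction with the emerin knockout (3 genes) gave 8 with quantile normalization, 0 with median scaling, 5 with pseudocount 100, 0 without the trend and with the compared groups alone, 14 with the Gapdh covariate, and 0 to 17 without single arrays, 17 being without emerin knockout day 4 replicate 2 and 0 without emerin knockout day 3 replicate 1 or 3, day 4 replicate 3, or lamin A/C knockout day 3 replicate 1 or 2 or day 4 replicate 1 or 3. It could not be fitted without the high-ratio emerin arrays, which include all the emerin day 3 arrays.

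Array numbers are shared across days. The deviations of same-numbered arrays from their group means correlated at 0.00989, 0.101 and 0.138, and those of differently numbered arrays at -0.16 to 0.073. The pairs numbered 2 and 3 thus lay above that range and the pair numbered 1 within it. With the replicate block 144 genes rose and 87 fell, among them 128 of the 144 rises and 75 of the 84 falls of the report. Calls lost there include Myod1, Narf and the mitosis genes Bub3, Ncapd2 and Stmn1, which leaves 1 mitosis gene called. The cause of these shifts was not tested. With 3 arrays a day, 2-fold changes are recovered in part, so a gene without a call is not shown to be unchanged.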

Other observations

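Several genes outside every list were called in all 20 settings and in each fit without 1 array of the comparison. They were chosen after their values were seen. Vegfb, a vascular endothelial growth factor family member, read 113, 173 and 142 on day 3 and 364, 363 and 303 on day 4, without overlap (1.11 ± 0.15 (SE), adjusted p = 0.000365, limma). Ghr, the growth hormone receptor, went from 948 ± 66.7 to 1664 ± 181 (mean ± SD, n = 3; 0.79 ± 0.12 (SE), adjusted p = 0.000912). Fgfrl1, a decoy-like receptor for fibroblast growth factors, went from 462 ± 105 to 1068 ± 233 (1.15 ± 0.19 (SE), adjusted p = 0.00217). Thrsp, a regulator of lipid synthesis, went from 139.9 ± 57.8 to 415 ± 131 (1.40 ± 0.23 (SE), adjusted p = 0.00234), and Sh3bgr, a muscle-enriched gene, from 586 ± 49.2 to 1449 ± 210.4 (1.25 ± 0.15 (SE), adjusted p = 9.11e-05).

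Serpinb1a, an inhibitor of neutrophil proteases, read 176, 328 and 281 on day 3 and 877, 753 and 547 on day 4 (1.38 ± 0.23 (SE), adjusted p = 0.0031), every day 4 array being higher. Its day change was -0.23 in the control and 0.60 in the emerin knockout, and the difference from the control was not called (adjusted p = 0.328). Heatr1, a ribosome biogenesis factor, was a fall of this kind (981 ± 44.1 to 624 ± 11.2, -0.63 ± 0.13 (SE), adjusted p = 0.0101), with its other bright probe set in the opposite direction. Cldnd1 also fell (-0.88 ± 0.15 (SE), adjusted p = 0.00313), and both of its other bright probe sets went in the opposite direction.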
